A study of Mus musculus with 22 samples.

Results

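The data described here are the knockdown experiment of an RNA-seq series on primary neural stem cells from the adult mouse hippocampus, 11 of the 22 libraries of the series. In 5 libraries the cells had received lentiviruses that encode a short hairpin RNA against Ogt (shOgt, replicates 1, 2, 3, 5 and 6). In 6 libraries they had received lentiviruses with a hairpin against luciferase, a gene that mouse cells lack (shLuc, replicates 1 to 6). Both groups were plated cells kept in growth medium with EGF and bFGF and were given 10 viral particles per cell for 3 days before RNA extraction, so that the virus, its dose, the medium and the time are shared and the hairpin's target differs. The other 11 libraries, of cells given the OGT inhibitor OSMI-1 (12.5 µM, 24 h) or vehicle, are set beside the knockdown only where named. The labels do not say how many hairpin sequences were used or whether the libraries of a group came from separate cultures, so the p-values measure the spread between these libraries, which may be technical. The libraries were chosen by their labels, and all 24411 genes of the deposited table entered, with the weight on genes outside 2 lists of cell cycle genes.

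OGT is the enzyme that places single N-acetylglucosamine sugars on serine and threonine residues of nuclear, cytosolic and mitochondrial proteins, and OGA, listed here under its older symbol Mgea5, removes them. The sugar comes from UDP-GlcNAc, the end product of the hexosamine pathway, so the mark ties glucose and amino acid supply to transcription factors, kinases and chromatin proteins. A short hairpin RNA is processed into a small guide RNA that is loaded into Argonaute and lowers its target mRNA, and like a microRNA it can also pair through its seed, the bases near its 5′ end, with other mRNAs.

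Reads per library lay between 9852956 and 13222262 in shLuc and between 7224180 and 11203201 in shOgt. Of the 18 stem cell markers looked up, 14 passed the expression filter, among them the intermediate filament gene Nes (mean 5591 normalized counts in shLuc and 5228 in shOgt) and the radial glial lipid carrier Fabp7 (12269 and 10750). Prom1 (7.67 and 15.1), Gfap (19.1 and 15.1) and Nr2e1 (29.5 and 13.4) passed at low counts. Those that did not pass were Hes5 (3.08 and 1.74), Hopx (0.616 and 0.603), Id4 (0.168 and 0) and Msi1 (3.62 and 1.71). Markers of microglia and of vessels were at or near 0. Summed over 16 microglial and immune markers the level was 8.39 to 33.9 normalized counts in shLuc and 25.4 to 50.7 in shOgt, with Cx3cr1, C1qa, C1qb and Ctss at 0 in all 11 libraries. Over 16 endothelial, mural and fibroblast markers the sums were 31.3 to 73.2 and 42.7 to 149, and the endothelial receptor Tek was called higher (9.71 ± 8.19 to 29.8 ± 15.9), a call lost in edgeR, in DESeq2 and without any of 6 single libraries. Over 10 ependymal and choroid plexus markers, not at 0, the sums were 146 to 287 and 212 to 261. Of 5 tested, Folr1 (42.1 ± 17.7 to 107 ± 12.9) and Enkur (8.59 ± 4.03 to 19.7 ± 3.59) were higher, Enkur with a call lost without any of 9 single libraries, and Foxj1, which drives motile cilia, was not called (69.3 ± 24.6 and 48.5 ± 14.6). The part of such cells in the results was not tested. Library shLuc 1 stood apart on the second principal component and shLuc 3 and shOgt 3 on the third, and list counts without these 3 libraries are given below where they differ by 1.5 times or more.

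Ogt mRNA was the check of the labels. It ranged over 737 to 1004 normalized counts in shLuc and stood at 401, 418, 349, 430.0 and 524 in shOgt 1, 2, 3, 5 and 6, so the groups did not overlap, and its mean was 50.8% of the shLuc mean (limma, adjusted p = 1.1e-06). Values in this order (shLuc lowest, median and highest, then shOgt 1, 2, 3, 5 and 6) are used throughout; they are the authors' normalized counts, means carry the SD (n = 6 in shLuc, named first, and n = 5 in shOgt), and log2 fold changes carry the SE, on the log2(normalized count + 1) scale. Mgea5 ranged over 261 to 417 in shLuc and over 232 to 395 in shOgt, with overlap (log2 fold change -0.44 ± 0.15, limma adjusted p = 0.029), and this call was lost without any of 8 single libraries.

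Across the table, 12136 genes could be tested and 3855 passed at an adjusted p of 0.05, which is 31.8% of them. Higher calls numbered 1867 (15.4%) and lower calls 1988 (16.4%), and every share of a gene list below is to be read against these 2 percentages. In bulk RNA, fewer cells of a kind and less RNA per cell cannot be told apart. The 2 cell cycle lists supplied 182 of the calls (180 lower and 2 higher, of 212 tested members). The other 95.3% of calls lay outside them: 1865 genes were higher in shOgt and 1808 lower, with a change beyond 2-fold in 428 of the former and 226 of the latter. The 5 shOgt libraries were alike in these genes, which were called from the same libraries, so the following is a description. The median difference of the 1865 risen genes from the shLuc mean was between 0.58 and 0.65 on the log2 scale in each of the 5 shOgt libraries, and that of the 1808 fallen genes between -0.54 and -0.48. Outside the cell cycle lists the groups did not overlap in 2134 of 11924 tested genes. Among them were 1045 of the 1865 higher and 1039 of the 1808 lower calls. Groups without overlap were thus common among called genes, and such statements below are to be read against these counts.

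The largest rise among well expressed genes outside the cell cycle lists (a mean of at least 100 normalized counts, groups that do not overlap) was that of Syt1, the calcium sensor of synaptic vesicles (chromosome 10, 108497650 to 109010982, minus strand, GRCm38). Syt1 stood at 32.3 to 83.0 (median 38.6) in shLuc and at 276, 349, 191, 256 and 235 in shOgt, a mean 5.63 times that of shLuc (log2 fold change 2.52 ± 0.23, limma adjusted p = 1.7e-07). Each shOgt library lay more than 2-fold above the highest shLuc library. Cdh26, a cadherin, was next, at 63.5 to 112 (median 96.2) in shLuc and 468, 423, 418, 335 and 326 in shOgt. The antiproliferative gene Btg2 followed (406 ± 33.2 to 1673 ± 181), then Nradd, a death domain protein related to the neurotrophin receptor (101 ± 35.04 to 370.2 ± 32.5).

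The remaining 11 of the 15 largest rises fall into a few kinds of protein. Secreted and matrix proteins were Ecm1 (78.0 ± 16.04 to 289 ± 70.8), Crispld2 (206 ± 30.9 to 716 ± 49.0) and the microfibril protein Fbn2 (344 ± 60.9 to 1127 ± 153). Phospholipid-binding annexins were Anxa1 and Anxa4, of which Anxa4 went from 57.7 ± 16.2 to 194 ± 37.6. Membrane and lipid proteins were Tspo of the outer mitochondrial membrane (97.5 ± 40.1 to 339 ± 43.9), the ceramide synthase Cers4 (57.5 ± 27.4 to 191 ± 27.2), Pqlc3 (292 ± 33.9 to 1012 ± 162) and Lmbr1l (86.4 ± 24.2 to 275 ± 31.8). The last were Ddx58, which encodes the cytosolic RNA sensor RIG-I, and Mgmt, a protein that takes alkyl groups off guanine in DNA (110.2 ± 37.3 to 356 ± 81.1). For all 15 genes each shOgt library lay above each shLuc library, as the choice of genes without overlap required.

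The largest fall was that of Gpc1, a heparan sulfate proteoglycan held on the membrane by a lipid anchor (chromosome 1, 92831645 to 92860779, plus strand). Gpc1 stood at 712 to 1018 (median 794) in shLuc and at 128, 259, 181, 188 and 161 in shOgt, 22.03% of the shLuc mean (log2 fold change -2.20 ± 0.15, limma adjusted p = 2.1e-09). Wnt7a, a secreted Wnt ligand, was at 241 to 369 (median 275) and 73.8, 78.9, 161, 90.7 and 42.7, with shOgt 3 the highest of its 5 libraries. The falls, like the rises, were chosen among genes whose groups do not overlap. Trib2, a pseudokinase that brings ubiquitin ligases to their substrates, had the smallest p of the 15: 3818 to 4187 (median 3977) in shLuc against 1364, 1434, 1344, 1479 and 1391 in shOgt (log2 fold change -1.51 ± 0.06, limma adjusted p = 3.5e-12). In Trib2 both groups were tight, and the gap between them was far wider than either.

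The other 12 falls were of several kinds. They included the kinase Nek7 (223 ± 35.2 to 68.6 ± 22.1), the phosphatase Ptp4a1 (570.0 ± 77.9 to 177 ± 47.0), the phosphodiesterase Pde2a (819.7 ± 66.2 to 298 ± 76.7), the deubiquitinase Usp46 (628 ± 76.1 to 217 ± 34.6), Rab2b, a GTPase of the early secretory pathway (366 ± 51.8 to 119 ± 23.3), and the translational repressor Samd4b (155 ± 30.3 to 47.8 ± 3.23). Lims1, an adaptor that binds integrin-linked kinase at focal adhesions, went from 2352 ± 145 to 741 ± 91.4. Enzymes and secreted proteins were Isca1 of iron-sulfur cluster assembly (1748 ± 84.3 to 505 ± 101), the dipeptidase Pepd (1949 ± 203 to 729 ± 123), the prostaglandin reductase Ptgr2 (969.9 ± 72.7 to 359.7 ± 22.2), the alkaline phosphatase Alpl (203 ± 18.7 to 75.3 ± 14.1) and the calcium-binding matrix protein Smoc1 (436 ± 65.6 to 159 ± 43.9).

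Of these 15 largest falls, 10 belong to genes whose longest annotated 3′UTR holds the heptamer AACATGC, and 13 to genes that hold at least its 6-base core, ACATGC. Of the 15 largest rises none holds the heptamer and 1 (Mgmt) the core. The heptamer came from an earlier search of these same data, so its presence in these genes is a description and supports nothing by itself. The sites below are those of 6 of the called lower genes with the smallest p among those in which A follows the heptamer, together with the 2 sites of the Ogt mRNA itself. Capitals mark the heptamer and, where it follows, the A. All 3′UTRs are of GENCODE vM21 on GRCm38, and each sequence is given 5′ to 3′ on the strand of the mRNA.

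Trib2: aagattggaAACATGCAtgatgggga
Pkm: tgcctctaaAACATGCAatagagacc
Lims1: tgtaaaaggAACATGCAtattactaa
Isca1, site 1: gtggagcggAACATGCcattctgaca
Isca1, site 2: tcgattaaaAACATGCAtctttatga
Ednrb: gttgtacctAACATGCActtgtaata
Ptgr2: aagattcttAACATGCAtttaaaaat
Ogt, site 1: gaactagatAACATGCtttgtgtgta
Ogt, site 2: tttctctcgAACATGCcatctggtgc

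These windows of 26 bases lie in 3′UTRs at 12:15791815-15791840 (minus strand) for Trib2, 9:59678969-59678994 (plus) for Pkm, and 10:58422216-58422241 (plus) for Lims1. Those of Isca1 lie at 13:59755851-59755876 and 13:59755414-59755439 (minus), that of Ednrb at 14:103814737-103814762 (minus) and that of Ptgr2 at 12:84314062-84314087 (plus). Ednrb, an endothelin receptor not named so far, fell from 5515 ± 394 to 2170.1 ± 264. The Ogt windows lie at X:101682390-101682415 and X:101683042-101683067 (plus), and their heptamers begin at bases 69 and 721 of a 3′UTR of 2021 bases. Of 1738 mature mouse microRNAs in RefSeq, 0 have GCAUGUU, the reverse complement of the heptamer, as bases 2 to 8. The sequence of the Ogt hairpin is not given in the sources used here.

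The classes of 3′UTR were also set side by side over the whole table. The heptamer came from these same data, so this too is a description. A 3′UTR was annotated for 11712 tested genes. Of the 457 genes with the heptamer followed by A, 34.8% were called lower and 7.22% higher, with a median log2 fold change of -0.27. Of the 654 genes with the heptamer but no A, 23.7% were lower and 9.79% higher (median -0.13), and of the 1038 with the core followed by A, 22.9% were lower and 9.63% higher (median -0.06). The 1420 genes with the core alone gave 17.7% lower and 13.5% higher (median -0.02), and the 8143 without the core 14.2% lower and 17.5% higher (median 0.04). Over 3′UTRs of all lengths the share of lower calls thus fell from each class to the next, although the difference between the heptamer alone and the core with A was small and their order was reversed in 3′UTRs of 500 to 1000 and of 1000 to 2000 bases, and the share of higher calls ran the other way apart from the step between the heptamer alone and the core with A.

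**Figure D1:**
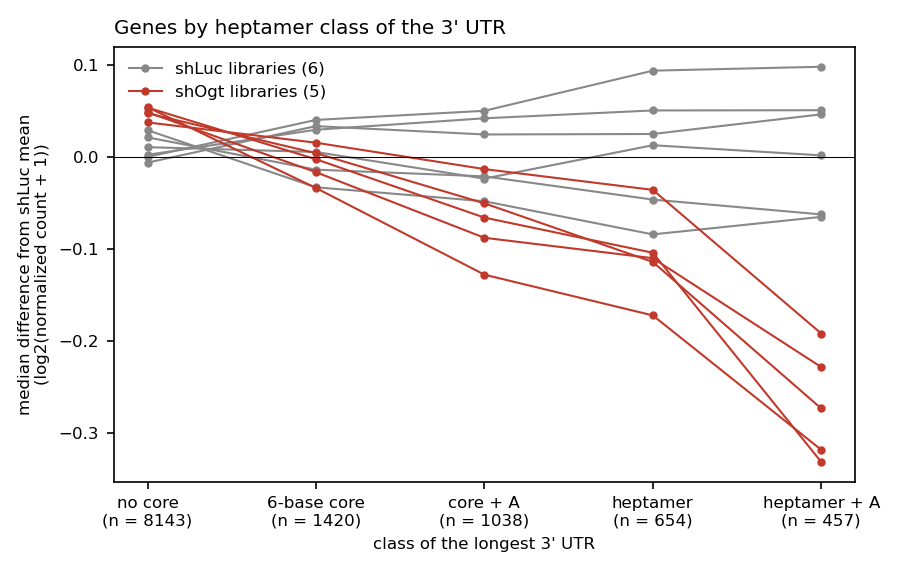
Median difference from the shLuc mean, on the log2(normalized count + 1) scale, of genes in 5 classes of 3′UTR, 1 line per library (each shLuc library against the mean of the other 5). With the heptamer followed by A the 5 shOgt libraries lie between -0.33 and -0.19 and the 6 shLuc libraries between -0.06 and 0.10; without the core, the shOgt libraries lie between 0.04 and 0.05.

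With the heptamer followed by A the medians were -0.33, -0.27, -0.32, -0.23 and -0.19 in shOgt 1, 2, 3, 5 and 6. These libraries are part of the data that gave the heptamer, so their likeness supports nothing by itself. Genes with the heptamer had longer 3′UTRs (median 2924 bases with the A, against 890 without the core). Within 3′UTRs of 2000 to 4000 bases, a stratum chosen after seeing the data, 36.8% of 182 genes with the heptamer and A were lower against 11.9% of 1323 without the core, with medians of -0.24 and 0.06. After OSMI-1, where no hairpin was given, the medians of the 2 classes were 0.05 and 0.02 in this stratum. Over 3′UTRs of all lengths they were 0.04 and -0.01. Genes with the heptamer were 15.8% of all lower calls and 27.9% of the lower calls beyond 2-fold outside the cell cycle lists, against 9.49% of the genes with a 3′UTR. The part that pairing with the hairpin has in these falls was not tested, and for the lists below the number of heptamer genes among the fallen members is given for each list with 3 or more of them.

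Ranked by normalized counts lost or gained, and not by fold, other genes led. Pkm, the pyruvate kinase gene, stood at 100293 to 119726 (median 112193) in shLuc and at 48261, 50606, 55488, 49278 and 45199.7 in shOgt, so that its mean fell by 61631 normalized counts to 44.7% of the shLuc mean (log2 fold change -1.16 ± 0.06, limma adjusted p = 7.4e-11). Also among the 6 largest losses were the glycolytic enzyme genes Eno1 (enolase), which fell by 30841, and Ldha (lactate dehydrogenase), which fell by 22724. These 3 genes were picked by their losses, and glycolysis was not taken as a list. The aldolase gene Aldoc, looked up as an astrocyte marker, was not called (2669 ± 184 and 2413 ± 280). Ldha was at 36060.0 to 41922 (median 38133) in shLuc and 13329.9, 16706, 17201, 17476 and 13125 in shOgt, and neither Pkm nor Eno1 nor Ldha had overlapping groups. Eno1 has a near-identical retrocopy in the mouse genome, so the split of its reads is uncertain. Together the 3 genes held 2.17 to 2.37% of all normalized counts in the shLuc libraries and 1.14 to 1.30% in the shOgt libraries. Pkm and Ldha hold the heptamer and Eno1 the core followed by A.

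The other large losses were those of the brain creatine kinase Ckb, the constitutive heat shock protein Hspa8 and the oligodendrocyte lineage factor Olig1. Olig1 stood at 16661 to 19725 (median 18733) in shLuc and at 10175, 9997, 10635, 10997 and 9477 in shOgt, 55.1% of the shLuc mean and with no overlap. Ckb (186066 ± 15932 to 158612 ± 16475) overlapped between the groups, with a call lost when no expression filter was used, and Hspa8 (63643 ± 4925 to 53616 ± 2592) did not. The largest gains were those of Tuba1a, Rab31, Trf, Tnc, Sdc4 and Sparc. Tuba1a, an alpha tubulin of young neurons and progenitors, was at 33607 to 37669.6 (median 35309) in shLuc and at 59324, 52376, 52336, 50970.3 and 52055 in shOgt. Sdc4, a transmembrane heparan sulfate proteoglycan, was at 5219 to 7341 (median 5925) and 15426, 14757, 16579.6, 13537 and 13421. Sdc4 thus rose 2.41-fold while Gpc1, which carries the same kind of sugar chain, fell. Tuba1a belongs to a family of near-identical tubulins, so its counts are less certain. The iron carrier transferrin (Trf, 26368 ± 1441 to 35876 ± 2383), the matrix glycoproteins Tnc (13096 ± 1312 to 22145 ± 1605) and Sparc (12267 ± 552 to 20765 ± 996) and the small GTPase Rab31 (42998 ± 1467 to 52796 ± 2919) completed the 6, and all 6 had groups that did not overlap.

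**Figure D2:**
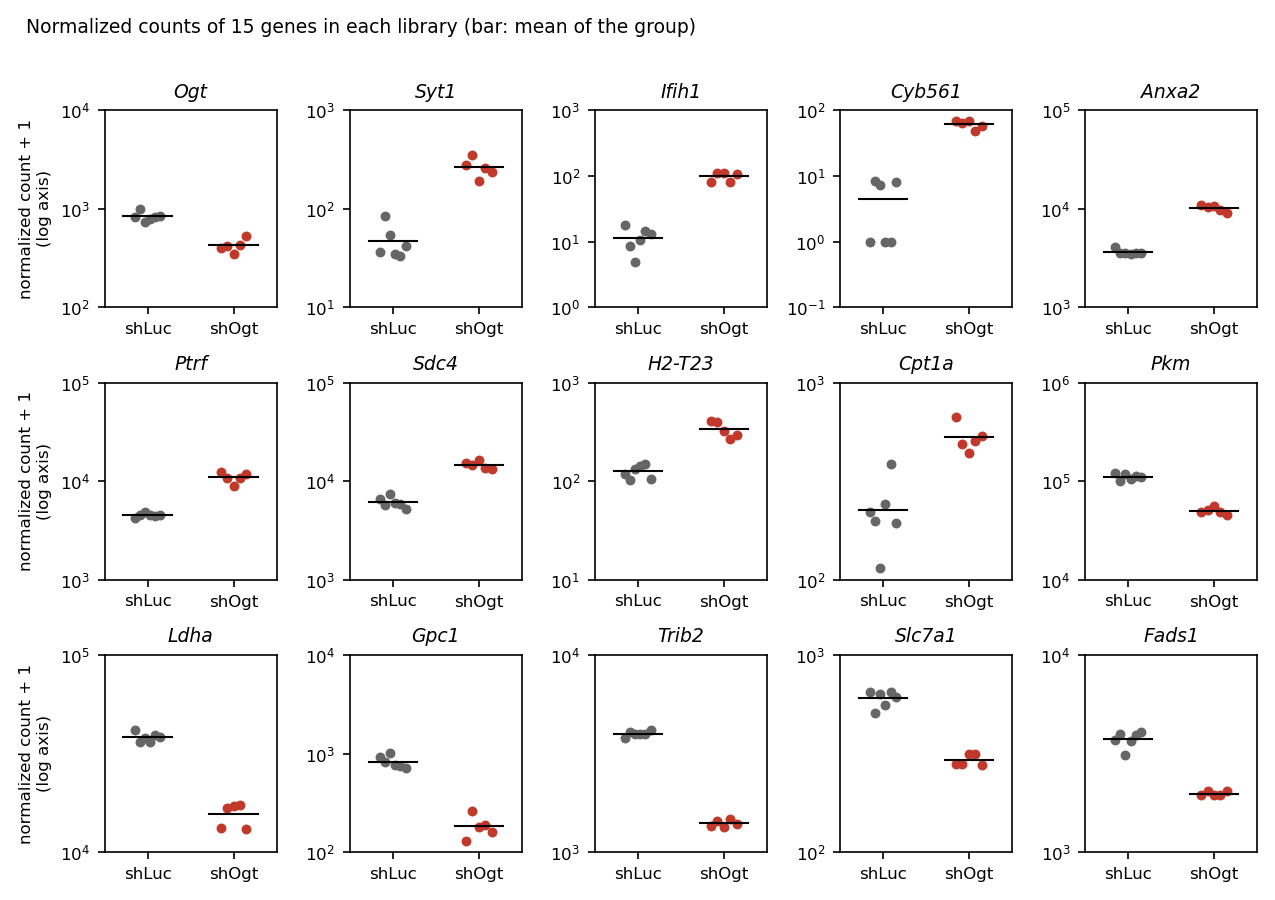
Normalized count + 1 (log axis) of 15 genes, 1 point per library, 6 shLuc and 5 shOgt libraries, with the bar at the group mean. No gene shown has overlapping groups: Syt1, Ifih1, Cyb561, Anxa2, Ptrf, Sdc4, H2-T23 and Cpt1a are higher in shOgt, the other 7 lower.

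In 3 genes the mean was at most 5 normalized counts in shLuc and at least 30 in shOgt, with groups that did not overlap, and 0 genes went the other way. Cyb561, an ascorbate-dependent transmembrane electron carrier, stood at 0, 7.46, 6.30, 0, 0 and 7.06 in shLuc 1 to 6 and at 67.6, 63.1, 66.3, 47.0 and 55.1 in shOgt (chromosome 11, 105933702 to 105953336, minus strand). Slc37a1, a sugar phosphate exchanger, was at 0, 7.46, 3.94, 0, 6.64 and 6.05 and 46.2, 27.6, 26.8, 22.4 and 64.5. Cd55, which speeds the decay of complement convertases on the cell's own surface, was at 5.37, 2.80, 4.73, 5.22, 0.949 and 2.02 and 48.0, 19.7, 21.2, 41.6 and 19.8. Cyb561 was even across the 5 shOgt libraries, while Slc37a1 and Cd55 varied more than 2-fold among them.

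**Figure D3:**
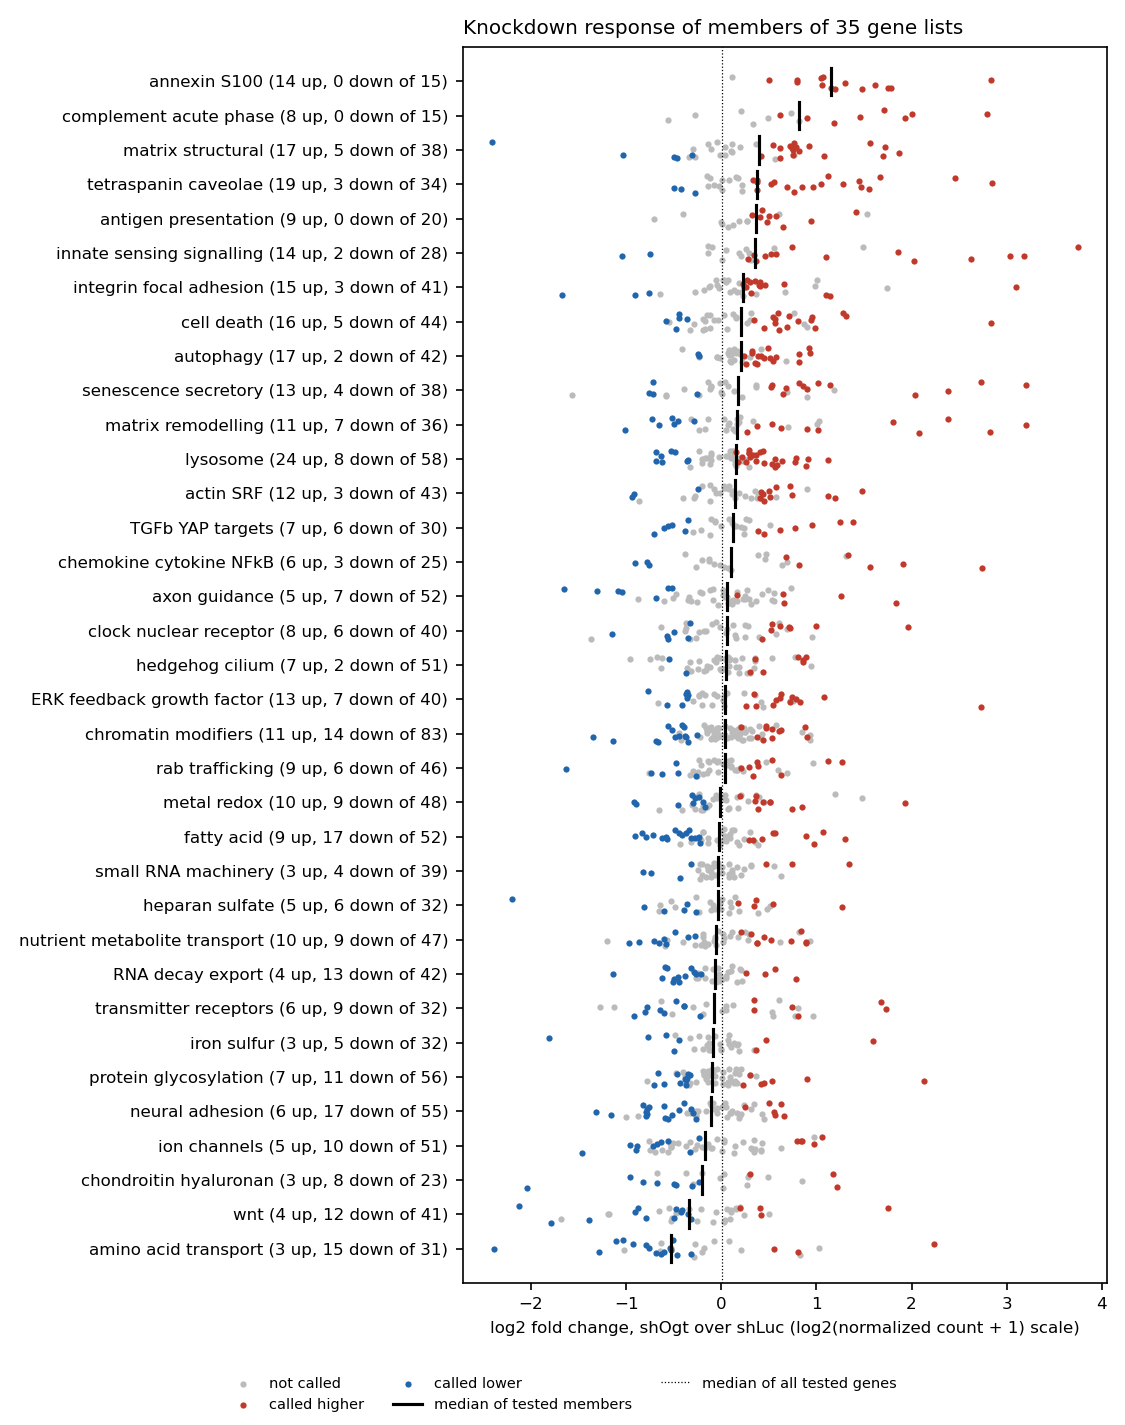
Log2 fold change (shOgt over shLuc) of each tested member of 35 gene lists, 1 point per gene, ordered by the median (black bar); the dotted line is the median of all 12136 tested genes (0.01). Annexins and S100 proteins have the highest median (1.15) and amino acid transporters the lowest (-0.52). The lists were chosen with earlier results of these data known.

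The 35 lists were chosen with earlier results of these data known, so their shares and their order are a description and support nothing by themselves. Of the 35 lists, the annexins and S100 proteins had the highest median. Annexins bind phospholipid in the presence of calcium at membranes, and S100 proteins are small calcium sensors that pair with them. Of 15 tested members 14 rose (93.3%, against 15.4% of all genes) and 0 fell, 11 of them by more than 2-fold, and the median log2 fold change was 1.15. Anxa2 was at 3485 to 4126 (median 3554) in shLuc and at 10987, 10286, 10737, 9668 and 9100.5 in shOgt (log2 fold change 1.48 ± 0.06, limma adjusted p = 9.2e-12). Its partner S100a10, with which it forms a heterotetramer, was at 1383 to 1929.6 (median 1482) and 3784, 3574, 3807, 3643 and 3006. Anxa5 went from 841 ± 60.6 to 2084 ± 219.8. The summed level of all 24 members in the table was 10413 to 12563 normalized counts in shLuc and 22546 to 26339 in shOgt, with no overlap.

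Caveolae and tetraspanin domains organise patches of the plasma membrane. Of 34 tested members 19 rose and 3 fell (median 0.37). Tm4sf1, a tetraspanin-like surface protein, was at 787 to 960.2 (median 905) in shLuc and at 2978, 2665, 2852, 2707 and 2827 in shOgt. Ptrf, the cavin that coats caveolae, was at 4230.4 to 4835 (median 4520.5) and 12514, 10881, 8896, 10845 and 11853, and the membrane-shaping ATPase Ehd4 went from 1348 ± 98.0 to 2782 ± 232. In all 3 genes the groups were apart. The 3 that fell were Pacsin2 (971 ± 132 to 718 ± 55.8), Pmp22 (475 ± 62.3 to 337 ± 56.7) and Tspan7 (3096 ± 306 to 2543 ± 72.0), each by less than 2-fold.

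Structural matrix genes gave 17 higher and 5 lower of 38 (median 0.39). Besides Tnc, Sparc and Fbn2, the higher members included laminin, nidogen and collagen V chains, named here after their values were seen. Fbln1 (875 ± 103 to 618 ± 35.6), Matn2 (10408 ± 383 to 8436 ± 686) and Eln (40.0 ± 9.57 to 19.0 ± 4.33) were among the lower ones, and the count of 5 was 3 without shOgt 1 or without shOgt 2. Matrix remodelling genes were more divided, 11 higher and 7 lower of 36 (median 0.17). Mmp11, a matrix metalloproteinase, stood at 0.895 to 23.2 (median 14.1) in shLuc and at 110.3, 95.7, 91.8, 43.8 and 88.4 in shOgt, and Plau, the urokinase that activates plasminogen, at 0, 0, 0, 0, 12.3 and 1.01 in shLuc 1 to 6 and at 16.01, 10.9, 18.4, 17.1 and 13.5 in shOgt, so that Plau overlapped through shLuc 5 alone. On the lower side were the membrane-type protease Mmp16 (439 ± 42.5 to 219.6 ± 51.2), the inhibitor Timp4 (1243 ± 74.0 to 869 ± 85.0) and the collagen lysyl hydroxylase Plod1 (3304 ± 300.2 to 2402 ± 172).

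Integrin and focal adhesion genes rose in 15 of 41 cases and fell in 3 (median 0.23), and 10 rose and 4 fell without shLuc 1, shLuc 3 and shOgt 3. The actin crosslinkers Actn4 (4074 ± 224 to 6432 ± 273) and Flna (2695 ± 155 to 3588 ± 297) and the integrin chain Itgb5 (58.1 ± 16.1 to 125 ± 12.0) were higher. Lims1 was the largest fall of the list, with the integrin chains Itga8 (374 ± 69.9 to 219.6 ± 28.8) and Itga6 (209.9 ± 33.9 to 113 ± 29.1) beside it. Ilk, the kinase that Lims1 binds, was among the 15 that rose. Actin genes and targets of serum response factor gave 12 higher and 3 lower of 43 (median 0.15), with 1 lower without shOgt 6, 2 under total-count scaling and 5 without shOgt 3. Anxa2 and S100a10 are on this list too. Cald1, which binds actin and myosin, went from 1942 ± 83.3 to 3259 ± 226, whereas the LIM protein Csrp2 went from 111 ± 8.03 to 59.5 ± 15.4 and the actin binder Coro1c from 3063 ± 265 to 2580.4 ± 235, the latter with overlap and a call lost without shOgt 5 or without shOgt 6.

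Genes linked to TGF-beta and the YAP coactivator gave both directions: 7 rose and 6 fell of 30 (median 0.13). Cyr61, a matricellular protein and YAP target, was at 438 to 557 (median 515) in shLuc and at 1459, 1264, 1416, 1179 and 1289 in shOgt. The YAP kinase Lats2 (283 ± 39.7 to 669.6 ± 59.9) and the receptor Tgfbr2 (416 ± 54.6 to 804 ± 74.5) also rose. The YAP-binding scaffold Amotl1 (2473 ± 143 to 1901 ± 215), the SMAD corepressor Ski (364 ± 48.7 to 247 ± 26.2) and the phosphatase Ptpn14 (572 ± 56.0 to 449 ± 33.1) fell, Ptpn14 with overlap.

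Genes of innate sensing recognise foreign or misplaced RNA and DNA in the cytosol and pass the signal to interferon genes. Of 28 tested members 14 rose and 2 fell (median 0.36, 7 of the rises beyond 2-fold). Ifih1, which encodes the double-stranded RNA sensor MDA5, was at 3.94 to 17.0 (median 10.8) in shLuc and at 79.2, 109, 109, 80.0 and 107 in shOgt, 9.20-fold higher (3.18 ± 0.34, limma adjusted p = 8.2e-07). Ddx58 was at 30.7 to 105 (median 55.4) and 289, 196, 172, 180.3 and 236. Each shOgt library lay above each shLuc library for both RNA sensors. Tmem173, the adaptor STING of the cytosolic DNA pathway, went from 2063 ± 104 to 3456 ± 163. Mavs, the mitochondrial adaptor that RIG-I and MDA5 share, moved the other way, at 1089 to 1496 (median 1276) in shLuc and 743, 714, 785, 871 and 669 in shOgt, also without overlap. Mb21d1, the DNA sensor cGAS, went from 33.5 ± 7.58 to 17.7 ± 10.3 with overlap, and its call was lost in edgeR, in DESeq2, under total-count scaling and without any of 7 single libraries.

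Antigen presentation by MHC class I gave 9 higher and 0 lower of 20 (median 0.37). The nonclassical class I gene H2-T23 was at 103 to 148 (median 125) in shLuc and at 406, 393, 323, 267 and 290.3 in shOgt, and the common light chain B2m at 1352 to 1611 (median 1505) and 2259.9, 2097, 1995, 2412 and 2302. Cd1d1, which presents lipids, went from 744 ± 68.7 to 1167 ± 87.4. Class I heavy chains are near-identical copies, so reads of H2-T23 may be shared with its neighbours. Complement and acute phase genes gave 8 higher and 0 lower of 15 (median 0.82): Clu (584 ± 53.0 to 1331 ± 192), the complement inhibitor Cd59a (37.9 ± 9.56 to 123 ± 13.9) and the interferon-induced GTPase Gbp2 (22.9 ± 8.63 to 87.6 ± 22.4) were the 3 with the smallest p. Together with Cd55, Clu and Cd59a are genes whose products hold complement in check.

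Chemokine, cytokine and NF-kappaB genes were mostly low: of 44 members, 25 could be tested and 12 were at 0 in all libraries, and 6 rose and 3 fell (median 0.11), or 9 and 4 without shLuc 1, shLuc 3 and shOgt 3. Cxcl10, an interferon-induced chemokine, stood at 3.02 to 13.1 (median 7.85) in shLuc and at 47.1, 60.2, 53.6, 82.2 and 36.4 in shOgt. Il15 went from 7.19 ± 2.87 to 29.1 ± 7.68 and the TWEAK receptor Tnfrsf12a from 524 ± 39.7 to 926 ± 88.1. The stress cytokine Gdf15 (1305 ± 174 to 770.4 ± 105), the alarmin Il33 (214 ± 19.4 to 125 ± 19.7) and the chemokine Cxcl12 (268 ± 60.3 to 142 ± 25.2) fell, each without overlap. Microglial markers, whose summed levels are given above, were low in both groups and higher in some shOgt libraries, and their part in these lists was not tested.

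The promoters of these 4 lists were searched for GAAANNGAAA, the core of the interferon-stimulated response element, on both strands, in windows of 250 bases before to 50 after each RefSeq start (GRCm38.p6). Such a match was held by 3.39% of 9304 tested genes with a promoter in the RefSeq table, by 4.76% of 1429 called higher and by 3.31% of 1541 called lower. Among innate sensing genes 6 of 23 held it, among antigen presentation genes 5 of 15, among complement genes 3 of 12 and among chemokine genes 1 of 17. Of the members called higher, 4 of 13, 3 of 7, 2 of 7 and 1 of 2 held it, in the same order. Of the 10 genes that rose and held it, Eif2ak2 had a call lost without an expression filter and with the replicate block, among other settings. The match lay before the start in 6 of the 10. Of these 6, 4 are shown with the match in capitals, as stretches of 50 bases 5′ to 3′ on the strand of the gene.

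Isg15: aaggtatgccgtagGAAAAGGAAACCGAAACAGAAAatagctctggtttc
B2m: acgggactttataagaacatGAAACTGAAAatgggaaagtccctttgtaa
Cxcl10: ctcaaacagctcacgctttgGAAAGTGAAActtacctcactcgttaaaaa
Gbp2: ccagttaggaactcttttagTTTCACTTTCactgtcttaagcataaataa

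They lie at 4:156200861-156200910 (minus strand), 2:122147528-122147577 (plus), 5:92349073-92349122 (minus) and 3:142620584-142620633 (plus), in the order shown. The Isg15 stretch, which runs from 92 to 43 bases before the start, holds 3 overlapping matches. Isg15, a ubiquitin-like protein made after interferon and chosen here for its promoter after its values were seen, was at 11.6, 1.87, 16.5, 4.18, 3.796 and 6.05 in shLuc 1 to 6 and at 60.5, 37.5, 73.4, 61.9 and 53.1 in shOgt, without overlap. A match is a run of letters and not a shown binding site. The AP-1 core TGAGTCA, searched the same way, was held by 4.22% of all tested genes, by 5.46% of those called higher and by 2.92% of those called lower.

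Lysosomes degrade what autophagy and endocytosis deliver. Of 58 lysosomal genes tested, 24 rose and 8 fell (median 0.15). The acid lipase Lipa (321 ± 40.0 to 599.8 ± 98.6), the mannosidase Man2b2 (778 ± 121 to 1327 ± 153) and the heparan sulfate hydrolase Naglu (769.9 ± 56.3 to 1157 ± 103) rose. The abundant protease Ctsb was at 6244 to 6901 (median 6314) in shLuc and at 4380.2, 4319.5, 3751, 4019.7 and 4384 in shOgt, and the lipid transfer protein Gm2a (4862 ± 310.5 to 3120.1 ± 141) and the membrane protein Laptm4b (6760.0 ± 435 to 4203 ± 383) also fell. Ctsb holds the heptamer followed by A. Autophagy genes gave 17 higher and 2 lower of 42 (median 0.21): the receptors Calcoco1 (762 ± 114 to 1333 ± 100.4) and Sqstm1 (4782 ± 347 to 6196 ± 177) and the ubiquitin-like conjugate Atg12 (474 ± 46.5 to 690.2 ± 55.4) rose, while Map1lc3b, an LC3 protein that Sqstm1 binds, went from 3947 ± 353 to 3323 ± 241 with overlap. The 2 lower calls were 1 without shOgt 1, without shOgt 3 or under total-count scaling.

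Cell death genes gave 16 higher and 5 lower of 44 (median 0.21). The executioner caspase Casp6 was at 139 to 220.5 (median 179) in shLuc and at 437, 444, 445, 399 and 455 in shOgt, and the death receptors Tnfrsf10b (203 ± 31.4 to 387 ± 36.5) and Fas (136 ± 14.8 to 272 ± 43.8) rose as well. Dfna5, which encodes a gasdermin, fell (384 ± 24.3 to 283 ± 30.5) without overlap. Of 38 senescence and secretory genes 13 rose and 4 fell (median 0.18). The CDK inhibitor Cdkn2b (333 ± 20.9 to 737 ± 43.8) rose, and its relative Cdkn2d (1069 ± 78.3 to 652 ± 76.3) and the lamin gene Lmnb1 (1651 ± 80.2 to 1006 ± 109) fell.

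Amino acid transporters had the lowest median of the 35 lists. Of 31 tested members 15 fell (48.4%, against 16.4% of all genes) and 3 rose, with a median of -0.52, and 2 of the 15 hold the heptamer. Slc7a1, the carrier of arginine and lysine, was at 508 to 650.1 (median 622) in shLuc and at 281, 280.1, 313, 315 and 275 in shOgt (-1.03 ± 0.10, limma adjusted p = 2.7e-07). Slc38a10 was at 2916 to 3116 (median 3047) and 1664, 1744, 1972, 1941 and 1609.5. For both genes the highest shOgt library lay below the lowest shLuc library. Slc43a2 (282 ± 42.2 to 413 ± 54.9), Slc38a9, a lysosomal arginine sensor (62.5 ± 19.9 to 107 ± 15.8), and Slc7a8 (6.79 ± 6.87 to 22.5 ± 8.23) rose, the last at low counts with a call that edgeR and DESeq2 did not share. Other nutrient carriers were balanced, 10 higher and 9 lower of 47: the inositol carrier Slc5a3 (659.8 ± 134 to 1210.1 ± 156) rose, and the fatty acid carrier Slc27a1 (5075 ± 222 to 3238 ± 249), the zinc carrier Slc39a10 (681 ± 76.6 to 375 ± 53.1) and the phosphate carrier Slc20a1 (519.8 ± 51.5 to 267 ± 49.0) fell.

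Of 52 tested fatty acid genes 9 rose and 17 fell, 4 of the latter with the heptamer (median -0.02), or 11 and 11 when libraries were scaled by total counts. Cpt1a, which carries long-chain fatty acids into mitochondria, was at 114 to 387 (median 208) in shLuc and at 671, 486, 439, 503 and 535 in shOgt, its brain relative Cpt1c went from 1248 ± 158 to 2446 ± 265, and the lipid droplet coat Plin2 from 629.8 ± 44.7 to 1172 ± 114. On the lower side were desaturases. Fads1 was at 3104 to 4072 (median 3829) and 1952, 2045, 1959, 1942 and 2036, Scd2 at 9370.1 to 12166 (median 10560.4) and 6036, 6520.2, 5693, 6172 and 6550.4, and Fads2 went from 3025 ± 176 to 1960.5 ± 122. None of these 6 genes had overlapping groups, and Fads1 and Scd2 hold the heptamer. The steps did not move as blocks, since the desaturase Fads3 rose and the oxidation genes Hadha and Etfa fell (named after their values were seen).

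Among metal and redox genes, 10 higher and 9 lower of 48, the thioredoxin inhibitor Txnip rose from a low level, at 13.1 to 47.4 (median 17.5) in shLuc and 92.5, 54.3, 90.3, 123 and 83.2 in shOgt, and so did Gpx8 (253 ± 30.7 to 464 ± 100.4). Thioredoxin itself, Txn1 (12043 ± 987 to 9771 ± 343), and glutathione reductase, Gsr (286 ± 48.6 to 149.8 ± 15.7), fell. Transferrin and its receptor moved apart: Trf rose, as given above, and Tfrc was at 439 to 715 (median 571) in shLuc and at 268, 340.3, 208, 367 and 375 in shOgt. Iron-sulfur genes gave 3 higher and 5 lower of 32 (9.4% and 15.6%, median -0.09), neither above the share over all genes. Cisd3, a mitochondrial iron-sulfur protein, was at 55.5 to 103 (median 84.8) and 265, 241, 282, 267 and 218, and Isca2, the partner of Isca1 in late cluster assembly, went from 485 ± 29.7 to 674 ± 70.7 while Isca1 fell. The mitochondrial chaperone Hspa9 (5883 ± 416 to 3948 ± 318) and Fdxr (226 ± 42.7 to 131 ± 15.2) fell too.

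Wnt ligands bind Frizzled receptors and, through beta-catenin, keep many stem cells dividing. Wnt pathway genes gave 4 higher and 12 lower of 41 (median -0.34). Beside Wnt7a, the ligand Wnt5a was at 1853 to 2446 (median 2062) in shLuc and at 1427, 1496, 1461, 1505 and 1521 in shOgt, and the nuclear factor Tcf7l2 went from 1820.2 ± 224 to 1311 ± 142. Wls, which carries Wnt ligands to the surface, was higher (6311 ± 806 to 8478 ± 1335), with shOgt 3 inside the shLuc range, and the 4 higher calls were 1 or 2 without shLuc 6 or without shOgt 1, 2 or 6.

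Neural adhesion genes gave 6 higher and 17 lower of 55 (median -0.11), and 3 of the 17 hold the heptamer. The axonal adhesion molecule Nfasc was at 358 to 495 (median 395) in shLuc and at 172, 186, 216, 188 and 169.6 in shOgt, and the GPI-anchored Ntm (1086 ± 49.0 to 726 ± 88.6) and the synaptic neuroligin Nlgn3 (344 ± 29.9 to 199.7 ± 33.4) fell as well. Cdh13, a cadherin without a cytoplasmic tail, rose (1383 ± 80.6 to 2140.4 ± 172). Chondroitin sulfate and hyaluronan genes gave 3 higher and 8 lower of 23 (median -0.21, and -0.01 without the 2 heptamer genes). Here the epimerase Dse (229 ± 41.4 to 511 ± 31.9) and the sulfotransferase Chst14 (113 ± 32.2 to 260.4 ± 68.8), which make the dermatan form of the chain, rose, while Csgalnact1 (566 ± 72.1 to 325 ± 71.9), which starts chondroitin chains, Chst7 (3616 ± 349.6 to 2568 ± 206) and the proteoglycan receptor Ptprz1 (7303 ± 903 to 4578 ± 498) fell. Heparan sulfate genes were near balance, 5 higher and 6 lower of 32, with the 5 reduced to 3 without any of shLuc 3, shLuc 4, shOgt 1, shOgt 2 or shOgt 5. The sulfotransferase Hs6st2 (347 ± 60.2 to 196 ± 25.2) and the syndecan Sdc1 (569 ± 83.4 to 429 ± 30.8) were lower.

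Ion channels gave 5 higher and 10 lower of 51 (median -0.17), and the 10 were 5 without shOgt 5. Without shLuc 1, shLuc 3 and shOgt 3 the counts were 3 and 11. The potassium channel Kcnj16 (462 ± 29.2 to 298 ± 37.6) and the channel subunits Kcnip3 (683 ± 93.7 to 415 ± 52.2) and Kcnmb4 (225 ± 43.2 to 122 ± 27.6) fell. Transmitter receptors gave 6 higher and 9 lower of 32, and 5 of the 9 hold the heptamer. The acetylcholine receptor chain Chrnb1 (42.7 ± 11.6 to 141 ± 14.2) rose, and the glutamate receptors Grm5 (1456 ± 177 to 1041 ± 95.1) and Grik1 (225 ± 22.8 to 132 ± 34.4) and the GABA receptor chain Gabrg1 (633 ± 89.5 to 374 ± 83.3) fell. Axon guidance genes gave 5 higher (3 without shOgt 1) and 7 lower of 52, or 9.62% and 13.5%, both under the shares over all genes. Robo3 (22.4 ± 12.3 to 73.6 ± 11.5) and Efna4 (62.2 ± 24.7 to 144 ± 46.2) rose, and Ntn1 (814 ± 54.0 to 506 ± 41.8), Sema5b (315 ± 49.6 to 134 ± 50.01) and Sema3d (67.0 ± 16.6 to 30.5 ± 5.09) fell.

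Growth factor and ERK feedback genes gave 13 higher and 7 lower of 40 (median 0.04). The receptor Igf1r (526.02 ± 41.1 to 937 ± 77.6), the ligand Hbegf (1053 ± 56.0 to 1617 ± 134) and the phosphatase Dusp1 (285 ± 43.5 to 468 ± 60.4) rose, and the ETS factors Etv5 (11818 ± 1042 to 8829.7 ± 223) and Etv1 (1477 ± 64.4 to 1143 ± 75.3) and the neurotrophin receptor Ntrk2 (4561 ± 172 to 3574 ± 193) fell. Protein glycosylation genes gave 7 higher and 11 lower of 56 (median -0.09), the 7 reduced to 4 without shLuc 5, shOgt 1 or shOgt 2. Eogt, which adds N-acetylglucosamine to secreted proteins in the endoplasmic reticulum and is not related in sequence to Ogt, was at 15.2 to 33.6 (median 31.3) in shLuc and at 169.9, 114, 103, 130.2 and 125 in shOgt, 4.44-fold higher and without overlap. The oligosaccharyltransferase subunits Rpn1 (8093 ± 432 to 6257 ± 336) and Rpn2 (7896 ± 401 to 6142 ± 408) fell.

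Chromatin modifiers, as a list, lay near the background shares. They gave 11 higher and 14 lower of 83, or 15 and 12 when libraries were scaled by total counts, and 5 of the 14 hold the heptamer; without shOgt 6 the 11 were 7. Within them Smarca4, the ATPase of the BAF remodelling complex, was at 3381 to 3987 (median 3861) in shLuc and at 1635, 1720.3, 1964, 1818 and 1439 in shOgt, and the deacetylase Sirt2 at 1171 to 1735 (median 1347) and 492, 504, 638, 543 and 558. They fell to 45.6% and 39.1% of the shLuc mean, and the methyltransferase Suv39h1 fell too (799 ± 75.4 to 507 ± 83.1). The demethylases Kdm5a (661 ± 65.8 to 952 ± 65.6) and Kdm6b (118 ± 30.3 to 214 ± 24.0) and the corepressor Sin3b (1799.7 ± 205 to 2491 ± 197) rose.

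The small RNA machinery, which processes and uses hairpins, gave 3 higher and 4 lower of 39 (median -0.04), with 5 higher under total-count scaling. The shares of 3 and 4 (7.69% and 10.3%) lay under those over all genes. Ago1 was at 140.2 to 171 (median 157) in shLuc and at 264, 273, 263, 235 and 276 in shOgt, and Ago2, the Argonaute with slicer activity, at 249 to 312 (median 268) and 162, 149, 236, 124 and 162, so the 2 Argonaute genes moved in opposite directions without overlap. Ago2 holds the heptamer followed by A. The RNA helicase Mov10 (62.8 ± 22.5 to 155 ± 32.4) rose, and the nuclease Snd1 (4285 ± 202 to 3447 ± 321) and the nuclear transport GTPase Ran (11698 ± 1033 to 8716 ± 1210.0) fell. RNA decay and export genes gave 4 higher and 13 lower of 42 (median -0.07), of which 5 of the 13 hold the heptamer. Without shOgt 5 the counts were 1 and 8, and the 4 higher calls were 2 or fewer without any of shLuc 4, 5 and 6 and shOgt 2, 5 and 6 (0 without shOgt 6). The repressor Pum2 (1005 ± 145 to 734 ± 43.2), the exosome subunit Exosc2 (621 ± 43.0 to 455 ± 56.3) and the export factor Nxt1 (1019 ± 150.1 to 717 ± 88.8) fell.

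Rab GTPases and their partners gave 9 higher and 6 lower of 46 (3 lower without shOgt 1 and 3 under total-count scaling). Rab29 (475 ± 38.0 to 735 ± 32.1) and Rab3b (2786 ± 163 to 3606 ± 141) rose and Rab26 (5975 ± 546 to 3864 ± 310.2) fell, beside Rab31 and Rab2b. Hedgehog and cilium genes gave 7 higher and 2 lower of 51 (13.7% and 3.92%), both under the shares over all genes. The lower count was 1 without shOgt 1, and 4 without shLuc 4, shOgt 2 or shOgt 3. Under total-count scaling 11 were higher. The intraflagellar transport genes Ift43 (245 ± 27.0 to 444 ± 35.4) and Ift46 (681 ± 85.4 to 916 ± 38.3) and the ciliary dynein subunit Dync2li1 (161 ± 23.9 to 283 ± 45.6) were higher. The hedgehog receptor and target Ptch1 went from 176 ± 26.9 to 120.4 ± 22.6 with overlap. Clock genes and nuclear receptors gave 8 higher and 6 lower of 40 (3 lower without shLuc 4, and 4 without shLuc 1, shLuc 3 and shOgt 3 or under total-count scaling). The clock activator Arntl was at 187 to 238 (median 211) in shLuc and at 353, 312, 277, 363 and 458 in shOgt, while Nr1d1, which represses Arntl, went from 391 ± 67.9 to 274 ± 28.9 with overlap through shOgt 1.

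Markers of the neural cell types gave both directions. Of the 14 tested stem and progenitor markers 2 rose (Tnc and Vim, the latter 7745 ± 512 to 10928 ± 1284) and 3 fell, among them Slc1a3 (12303 ± 473 to 8547 ± 328) and Pax6 (188 ± 23.1 to 143 ± 10.0), whose call was lost under total-count scaling and without any of 8 single libraries. Of 9 tested neuronal markers 3 rose and 3 fell: Syt1 was joined by Tubb3 (235 ± 38.0 to 397 ± 25.8) and Calb1 (20.6 ± 7.10 to 50.3 ± 11.5), against Calb2 (727 ± 154 to 402 ± 33.9), Map2 (3375 ± 257 to 2576 ± 163) and Elavl4 (59.3 ± 20.3 to 26.8 ± 9.80). Dcx, Stmn2, Neurod1 and Rbfox3 stayed under 7 normalized counts on average in both groups. Neuronal markers summed to 4289 to 4937 in shLuc and 3687 to 4102 in shOgt, but most of each sum was Map2, so it mainly restates that gene. Of 14 astrocyte markers 3 rose and 3 fell. Clu rose, as given above, and Sox9 (2182 ± 306 to 1391 ± 68.6) and Acsbg1 (18724 ± 1364 to 14025 ± 1173) fell, while 2 of the 3 rises were lost without shLuc 2, shLuc 6 or shOgt 3, and also without shLuc 1, shLuc 3 and shOgt 3. Oligodendrocyte lineage markers gave 1 higher (0 without shOgt 1) and 3 lower of 7 tested. The higher one was Cnp (1606 ± 106 to 1903 ± 166). Olig1 fell, with Olig2 (721 ± 170.1 to 403 ± 42.3) and Cspg4 (306 ± 44.6 to 163 ± 62.9). The myelin genes Mbp and Mog of this list were at or near 0.

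**Figure D4:**
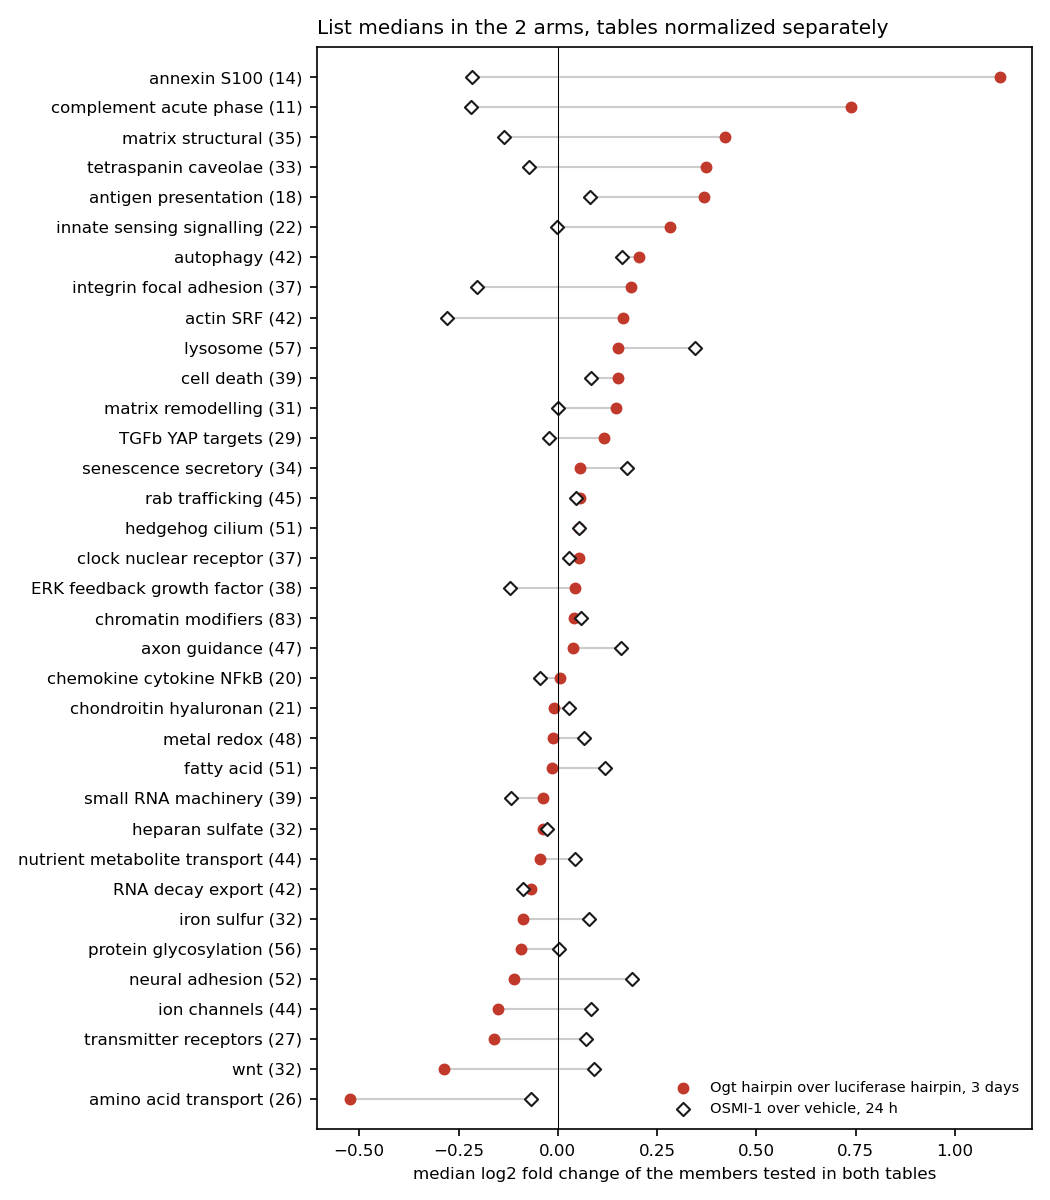
Median log2 fold change of the members of 35 lists that were tested in both arms (number in brackets), after the Ogt hairpin (filled circles) and after OSMI-1 (open diamonds). Annexins and S100 proteins stand at 1.11 and -0.22, actin genes at 0.16 and -0.28, lysosomal genes at 0.15 and 0.35 and neural adhesion genes at -0.11 and 0.19.

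OSMI-1 acts on the enzyme without a hairpin, for 24 h and not 3 days, and its table was normalized separately, so its values are set beside those of the knockdown and the difference was not tested. Of 11349 genes tested after OSMI-1, 11.6% were called higher and 13.2% lower. Ogt mRNA itself, lowered by the hairpin, was higher after OSMI-1 (-0.98 and 0.40). Annexins and S100 proteins, 14 of 15 higher after the hairpin, gave 2 higher and 3 lower of 14 after OSMI-1, and Anxa2 had a log2 fold change of -0.48 there. Actin genes gave 2 higher and 18 lower of 42 after OSMI-1, and focal adhesion genes 3 and 12 of 37, with Flna at 0.41 after the hairpin and -0.55 after OSMI-1. Structural matrix genes gave 3 higher and 10 lower of 35.

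After OSMI-1, neural adhesion genes gave 20 higher and 3 lower of 52, Wnt genes 7 and 3 of 32, and amino acid transporters 5 and 8 of 26, where Slc7a1 was lower in both arms (-1.03 and -0.93). Lysosomal genes, 24 higher and 8 lower after the hairpin, gave 31 and 0 of 57 after OSMI-1, and Ctsb stood at -0.63 and 0.51. Autophagy genes gave 12 higher and 0 lower of 42. Of the 3 glycolytic genes picked by their loss of counts, Pkm stood at -1.16 and 0.38, Eno1 at -0.64 and -0.17 and Ldha at -1.31 and -0.17. Of the 15 largest rises after the hairpin, Btg2 (0.55), Pqlc3 (0.52), Mgmt (0.64), Anxa1 (0.51), Ecm1 (0.43) and Fbn2 (0.30) were also called higher after OSMI-1, and Syt1 (-0.65), Cdh26 (-1.06) and Crispld2 (-0.78) were called lower. Among the 15 largest falls, Wnt7a (-0.65) and Alpl (-1.12) were also called lower after OSMI-1, and Pde2a (0.40) and Pepd (0.26) were called higher. The remaining 11 of these falls, 9 of which hold the heptamer, passed in neither direction there.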

How the data were processed

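RNA-seq libraries (6 shLuc, 5 shOgt) were made from primary stem cells of the adult mouse hippocampus, and the deposited table holds size-factor-normalized counts per gene symbol. STAR, RSEM and DESeq2 are named, without versions, in the submitters' processing notes, as is the build hg38, although the symbols are mouse; no coordinate of the authors was used. The labels name both Smart-Seq2 and a strand-specific poly(A) kit, so antisense and overlapping genes are uncertain. The signal deposited by the authors is in steps of 1 read, and 100% of the values were whole multiples (within 0.001), so that reads per library were recovered. Genes passed edgeR's filterByExpr on these reads (minimum count 10, total 15).

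The comparison used limma-trend (limma 3.58.1, R 4.3.3) on log2(normalized count + 1), two-sided, with Benjamini-Hochberg adjustment over all 12136 tested genes. The limma fit was also run on simulated counts drawn for these libraries, with fewer changed genes than were called here, and nothing above rests on that run. edgeR 4.0.16 and DESeq2 1.42.0 on the recovered reads, other pseudocounts, filters, scalings, a replicate block and left-out libraries were alternatives. 3′UTRs were taken from GENCODE vM21 (GRCm38), promoters and microRNAs from RefSeq (GRCm38.p6).

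The gene lists, the heptamer and the libraries compared were chosen with earlier results of these data known. Named genes are Ogt and Mgea5; the 15 largest rises and falls with a mean of at least 100, no overlap and outside the cell cycle lists; the 6 largest gains and losses of normalized counts; genes at a mean of at most 5 in 1 group and at least 30 in the other; up to 3 called members per list and direction with the smallest p; and the 6 genes whose sites are printed. Predicted genes are counted, not named. Some genes that this rule selects are not reported here.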

Additional observations from a re-analysis of the deposited data

Results flagged for a closer look

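For the named genes, each group was searched for 1 library that stood far from the other libraries of its group, measured as its gap to the nearest of them relative to the whole range (Dixon's 95% limit). This held in 22 of 420 groups of values, or 5.24%, where chance gives about 1 in 20. Of these, 8 were in shLuc 1. All values are normalized counts, and none of the causes was tested.

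In shLuc 1 the high values were those of Rab31 (45844), Hspa8 (73090), Anxa2 (4126), Pepd (2333), Chst7 (4282), Vim (8737) and Pmp22 (591), and the low value that of Mgea5 (261). In shLuc 2, Ogt (1004) and Gpx8 (311) were high. In shLuc 5, Plau was high (12.3) and Eogt low (15.2).

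In shOgt 5, Isca1 was high (682), Amotl1 low (1517) and Dusp1 low (365). In shOgt 3, Tcf7l2 (1560) and Cspg4 (274) were high and Suv39h1 (366) was low. In shOgt 6, Mgea5 was high (395) and Ntn1 low (433). In shOgt 1, Tuba1a was high (59324) and Lims1 low (581). Of these genes, Mgea5, Plau and Cspg4 are the ones whose groups overlapped, Plau through shLuc 5 and Cspg4 through shOgt 3.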

How the results depend on the processing

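The number of called genes stayed within 1.5 times of 3855 in every setting run. Leaving out each library in turn gave 3208 to 3897 calls (1510 to 1920 higher, 1698 to 2007 lower), and the other settings 3433 to 4013. DESeq2 called 4013 and edgeR 3848 on the recovered reads. Scaling by total counts gave 2215 higher and 1646 lower and moved the median log2 fold change of all genes from 0.01 to 0.07. With the replicate number as a block, over the 10 libraries whose numbers occur in both groups, 3962 genes were called (1920 higher, 2042 lower), against 3546 (1716 and 1830) in the same libraries without the block. Libraries of the same number correlated at -0.01, 0.03, 0.16, 0.01 and 0.07 (numbers 1, 2, 3, 5 and 6). Those of different numbers correlated at -0.18 to 0.13. The value of number 3 was the highest, and shLuc 3 and shOgt 3 also lay together on the third principal component (-33.6 and -34.0). Whether these 2 libraries share a batch was not tested. The main fit did not pair the libraries by number. Of 251 named genes, 229 kept their call in every setting in which they were tested, 22 lost it in at least 1 and 0 reversed. Counts of lists that 1 library moved by more than 1.5 times are given with those lists. The share of lower calls by 3′UTR class moved with the length of the 3′UTR. In 3′UTRs of 500 to 1000 bases it was 46.4% with the heptamer and A, 28.3% with the heptamer, 31.6% with the core and A, 23.4% with the core and 15.5% without it. In those of 1000 to 2000 bases it was 44.2% with the heptamer and A, 21.5% with the heptamer, 23.02% with the core and A, 20.4% with the core alone and 13.5% without it, and in those of 2000 to 4000 bases 11.9% without it. The cause was not tested. The class with the heptamer and A holds 28 genes in the shortest of these strata. Depth limits the genes with few counts, such as Plau, Isg15 and Cxcl10, where 1 library holds a handful of reads.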
